A study of Mus musculus with 3 samples.

Results

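Fc receptors are the molecules through which myeloid cells bind antibody, and 7 mouse genes for receptors of IgG and IgE are described here across 3 single-cell libraries. They were taken by symbol from the gene table of the count files, and all 7 were found among its 31053 genes. *Fcgr1*, *Fcgr3* and *Fcgr4* encode the activating IgG receptors, *Fcgr2b* the inhibitory one, *Fcer1g* the common gamma chain, *Fcer1a* the IgE-binding chain and *Fcgrt* the heavy chain of the neonatal receptor FcRn.

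Activating receptors bind IgG outside the cell and signal through the gamma chain, whose tyrosine motif recruits the kinase Syk after Src family kinases have phosphorylated it. The inhibitory receptor carries its own inhibitory motif, which recruits the phosphatase SHIP1, so that the ratio of activating to inhibitory receptors on a macrophage, monocyte, dendritic cell (DC) or neutrophil sets how strongly immune complexes trigger it. FcRn works inside the cell instead, where it returns IgG from endosomes and spares it from breakdown, and FcεRI arms mast cells and basophils with IgE.

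The study compared bone marrow cultures with or without vitamin D3 and sequenced the mouse cells that entered human skin placed under the skin of mice. Co-Mac is the untreated culture, bone marrow from C57/BL6 mice grown in granulocyte-macrophage colony-stimulating factor (GM-CSF). VD-Mac is the same culture given calcitriol, the hormonal form of vitamin D3 (VD3), for 24 h from day 7. hSTSG holds cells of human split-thickness skin grafts taken out of C57BL6/J mice after 14 days, pooled from 5 mice and read here for mouse genes only. Each condition has 1 library, so no difference between them has a replicate check, no test was run, and every interval below is an exact 95% interval that covers counting error only.

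The unit is the UMI, a tag that counts 1 captured RNA molecule at its 3′ end whatever the length of the gene, so levels of different genes can be set side by side. Co-Mac held 136905324 gene UMIs in 7866 barcodes, VD-Mac 124731240 in 9794 and hSTSG 24472168 in 2644. Barcodes with at least 300 genes, under 100000 gene UMIs and under 10% mitochondrial UMIs were kept, which left 7257, 8825 and 2144 cells with medians of 15804, 12089 and 6637.5 UMIs. Of the kept barcodes, 15 occurred in both cultures, 3 in Co-Mac and hSTSG, and 6 in VD-Mac and hSTSG. Levels are counts per 1000000 UMIs (CPM) over the summed cells of a type or library.

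The labels held at the gene level for the treatment. *Cyp24a1*, the vitamin D catabolic enzyme and a classical target of the vitamin D receptor, had 1 UMI in all of Co-Mac and stood at 315 CPM in VD-Mac. *Vdr*, the receptor itself, stood at 51.1 CPM in Co-Mac and 135 CPM in VD-Mac. By cluster names the label "macrophages" fitted a minority of the culture cells. Clusters named from macrophage markers held 971 of 7257 cells in Co-Mac and 1150 of 8825 in VD-Mac, while mature DC-like cells made up 36.3% and 37.7%. Cycling cells (1111 and 1122) and unnamed clusters are not in these counts, whatever their lineage.

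Cell types carry the ending "-like" because they were named from marker genes, by a rule settled after the clusters were seen, and the receptor genes and their listed pathway genes were left out of the clustering. The cultures held macrophage-like cells (cluster 3 in both, 971 and 1150 cells), mature DC-like cells (clusters 0 and 1 in both, 2635 and 3326), neutrophil-like cells (543 and 972), conventional type 1 DC (cDC1)-like cells (80 and 119) and mast cell or basophil-like cells (64 and 36). Both also held neutrophil precursor-like cells, cycling cells and unnamed clusters. The graft held *Trem2* macrophage-like cells (334), *Cd163* *Mrc1* macrophage-like cells (187, in 2 clusters), *Plac8* monocyte-like cells (285), DC-like cells (75) and mature DC-like cells (36). It further held neutrophil-like cells (476), T cell-like cells (301), fibroblast-like cells (142) and endothelial cell-like cells (25). Scrublet, a doublet caller, has not worked on these libraries: it called 0.0138%, 0% and 0.420% of the cells, so cell pairs remain among the named types.

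The low-affinity receptor genes sit side by side in the genome. On GRCm38, chromosome 1, *Fcgr2b* (ENSMUSG00000026656) spans 170958617 to 170976547, *Fcgr4* (ENSMUSG00000059089) 171018920 to 171029761 and *Fcgr3* (ENSMUSG00000059498) 171051174 to 171064935. No protein-coding gene lies in the 42372 bases between *Fcgr2b* and *Fcgr4* or the 21412 bases between *Fcgr4* and *Fcgr3*. *Fcer1g* (ENSMUSG00000058715) follows on the same chromosome at 171229572 to 171234365, 164636 bases beyond *Fcgr3* with 7 protein-coding genes between them. *Fcer1a* (ENSMUSG00000005339) is farther along at 173221284 to 173227214. The high-affinity receptor gene *Fcgr1* (ENSMUSG00000015947) stands apart on chromosome 3 at 96282909 to 96293969, and *Fcgrt* (ENSMUSG00000003420) on chromosome 7 at 45092990 to 45103851. These places are from GENCODE M21, which holds 99.6% of the gene identifiers in the files, while the labels list mm9.

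*Fcgr2b* and *Fcgr3* are close relatives, which bears on how well their reads can be told apart. In the last 500 bases of their transcripts, where 3′ tags fall, 76 of 1489 words of 31 bases in *Fcgr2b* (5.10%) also occur in *Fcgr3* transcripts. For *Fcgr3* the count shared with *Fcgr2b* is 5 of 960 (0.521%). *Fcgr4* shares 16 of 470 words (3.40%) with genes that are not Fc receptors, and *Fcgr1*, *Fcer1g*, *Fcer1a* and *Fcgrt* share 0. How reads from the shared words were counted was not tested.

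Over whole libraries the gamma chain was the most abundant of the 7, and all 4 IgG receptors and *Fcgrt* stood higher in the graft than in either culture. *Fcer1g* stood at 1239 CPM in Co-Mac, 830.4 CPM in VD-Mac and 1234 CPM in hSTSG. *Fcgr2b* stood at 115 CPM in Co-Mac, 128 CPM in VD-Mac and 627 CPM in hSTSG. Among the activating receptors *Fcgr3* led in all 3 libraries, at 214, 241 and 342 CPM. *Fcgr1* stood at 42.8 CPM (41.7 to 44.0), 11.2 CPM (10.6 to 11.8) and 48.5 CPM (45.7 to 51.4) in the same order. *Fcgr4* was close to absent from both cultures (0.867 and 0.893 CPM) and stood at 45.6 CPM in hSTSG. *Fcgrt*, the FcRn gene, stood at 34.4 CPM in Co-Mac, 52.5 CPM in VD-Mac and 196 CPM in hSTSG. The graft differs from the cultures in tissue, host, time and cell types together, so none of these can be told apart as the source of a difference.

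*Fcgr1*, the only high-affinity IgG receptor of the 7, was, among named cell types, highest in the *Cd163* *Mrc1* macrophages of the graft. Its level was 104 CPM (91.8 to 116) in the *Cd163* *Mrc1* macrophage-like cells of the graft, 77.6 CPM (67.7 to 88.4) in the *Plac8* monocyte-like cells and 76.6 CPM (70.0 to 83.6) in the *Trem2* macrophage-like cells. The last 2 did not differ beyond counting error. The *Cd163* *Mrc1* cluster of 62 cells stood at 130 CPM (106 to 157). The cluster of 125 cells stood at 92.5 CPM (79.3 to 107), which overlaps with the *Plac8* and *Trem2* groups. In Co-Mac, cycling cells stood at 72.1 CPM (69.5 to 74.8), which also overlaps with the *Plac8* and *Trem2* groups, and macrophage-like cells at 66.4 CPM (63.0 to 69.9). In VD-Mac the order was another: macrophage-like cells stood at 17.8 CPM (15.9 to 19.8), below the neutrophil-like cells at 36.7 CPM (30.3 to 43.9). Neutrophil-like cells of the graft stood at 3.49 CPM, within the interval of the T cell-like cells (2.54 to 9.74), which are taken as the background from free RNA. Neutrophil-like cells of Co-Mac stood at 30.3 CPM (21.3 to 41.8), and at 50.1 CPM with 30 principal components.

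*Fcgr3*, the low-affinity activating receptor for immune complexes, was the IgG receptor found in the largest share of cells in each culture, but not in the graft. Over whole libraries thinned to 2000 UMIs it was found in 26.9% of Co-Mac cells (472 left out), 30.7% of VD-Mac cells (1149 left out) and 37.0% of hSTSG cells (301 left out). *Fcgr2b* was found in 15.8%, 17.7% and 42.4%. Levels of *Fcgr3* were alike in the neutrophils of the cultures. Neutrophil-like cells carried 531 CPM in Co-Mac, 539.9 CPM in VD-Mac and 614 CPM in hSTSG, and the intervals of the cultures overlapped. Macrophage-like cells carried 401 CPM in Co-Mac, 584 CPM in VD-Mac, 560.2 CPM in the *Trem2* group and 556 CPM in the *Cd163* *Mrc1* group. The gene was also found in mast cell or basophil-like cells of the cultures (338 and 489 CPM) and in cDC1-like cells (154 and 142 CPM). Mature DC-like cells of all 3 libraries were low, at 10.5, 21.5 and 20.5 CPM.

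*Fcgr4*, an activating receptor for IgG2 subclasses, was the member most tied to the graft. Among named cell types its highest level was 134 CPM (114 to 157) in graft neutrophil-like cells, followed by 102 CPM (70.8 to 141) in the 40 neutrophil precursor-like cells, 83.4 CPM (73.2 to 94.7) in *Plac8* monocyte-like cells and 62.7 CPM (56.7 to 69.1) in *Trem2* macrophage-like cells. The precursor-like cells overlap with both neighbours in that order, while the other 3 intervals stand apart. An unnamed subset of 153 graft cells stood at 87.8 CPM (62.1 to 120). In the cultures the levels were highest in neutrophils and their precursors, though low. Precursor-like cells of Co-Mac carried 9.53 CPM (6.56 to 13.4) in cluster 7, 2.66 CPM (1.86 to 3.69) in cluster 4 and 4.06 CPM over both. Those of VD-Mac carried 14.2 CPM (6.81 to 26.1, 10 UMIs). Neutrophil-like cells carried 7.37 CPM (3.37 to 14.0) in Co-Mac and 5.28 CPM (3.08 to 8.46) in VD-Mac, and macrophage-like cells 0.609 and 1.48 CPM.

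*Fcgr2b*, the single inhibitory IgG receptor, was highest in graft macrophages. The *Cd163* *Mrc1* macrophage-like cells stood at 1584 CPM (1537 to 1632), the *Trem2* macrophage-like cells at 1006 CPM (982 to 1031), the *Plac8* monocyte-like cells at 733 CPM (702 to 765) and the DC-like cells at 327 CPM (295 to 361). No pair of these intervals overlaps. Neutrophil-like cells went the other way, with 369 CPM in Co-Mac (214 CPM with 30 principal components) and 364 CPM in VD-Mac against 76.8 CPM in the graft. By mean log2 ratio of markers to the other cells, their next best name was macrophage in Co-Mac (1.77) and VD-Mac (0.894). In the graft it was *Plac8* monocyte (0.978), and the part of this in the contrast was not tested. T cell-like cells stood at 30.7 CPM, with 39.1 CPM in cluster 3, which *Gzma* and *Nkg7* lead, and 16.8 CPM in cluster 7. The part of free RNA in these values was not tested. In the cDC1-like cells of both cultures *Fcgr2b* had 4 and 7 UMIs in all.

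Plasma cell-like cells of the graft (38 cells) showed 308 CPM of *Fcgr2b*, a receptor that B-lineage cells also carry. They showed 141 CPM of *Fcgr3* and 30.4 CPM of *Fcgr1* as well, genes of myeloid cells, and the part of mixed droplets in these values was not tested.

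*Fcer1g*, the gamma chain that carries the signal of the activating receptors, was high in most myeloid types. Neutrophil-like cells of the cultures led with 3122 CPM in Co-Mac and 3049 CPM in VD-Mac. Precursor-like cells in cluster 7 of Co-Mac followed with 2426 CPM (2375 to 2479), then neutrophil-like cells of the graft with 2291 CPM. Precursor-like cells stood at 2102 CPM in VD-Mac, and at 1425 CPM over all those of Co-Mac. Graft macrophage-like and monocyte-like cells lay between 1758 and 1886 CPM. The *Cd163* *Mrc1* group sums a cluster of 125 cells at 2069 CPM (2005 to 2135) and one of 62 cells at 1378 CPM (1298 to 1462). Mature DC-like cells were lower in each library, at 349.6, 303 and 166 CPM. T cell-like cells are no background for this gene, at 244 CPM in cluster 3, which *Gzma* and *Nkg7* lead, and 64.5 CPM in cluster 7, while fibroblast-like cells stood at 30.7 CPM.

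*Fcer1a*, the chain that binds IgE, marked a rare cell. Mast cell or basophil-like cells held 93.0% of all its UMIs in Co-Mac (361 of 388) and 99.6% in VD-Mac (240 of 241), at 502 and 584 CPM. *Ms4a2*, the beta chain of the same receptor, stood at 406 and 489 CPM there. In the graft the 14 cells of this name held both of the library's *Fcer1a* UMIs, at 23.0 CPM (2.78 to 82.9). Cells of this name carried 4223, 5244 and 6199 CPM of the basophil protease gene *Mcpt8*, in the order Co-Mac, VD-Mac, hSTSG. The Co-Mac cluster also held 472 CPM of *Ighm*, the IgM heavy chain gene of B cells, against 2.43 CPM in VD-Mac.

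*Fcgrt*, the FcRn heavy chain, followed a pattern of its own that reached beyond myeloid cells. The *Cd163* *Mrc1* macrophage-like cells stood at 1025 CPM (987 to 1064) and held 62.2% of the graft's *Fcgrt* UMIs with 11.9% of its gene UMIs. *Trem2* macrophage-like cells stood at 84.6 CPM and *Plac8* monocyte-like cells at 62.0 CPM. Fibroblast-like cells carried 145 CPM (132 to 157) and endothelial cell-like cells 113 CPM (87.1 to 144), against 3.18 CPM (1.17 to 6.92) in T cell-like cells. In the cultures the cDC1-like cells were highest, at 296.5 CPM (266 to 330.1) in Co-Mac and 322 CPM (295 to 351) in VD-Mac. Neutrophil-like cells were low in all 3 libraries, at 23.8, 14.0 and 5.24 CPM.

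**Figure D1:**
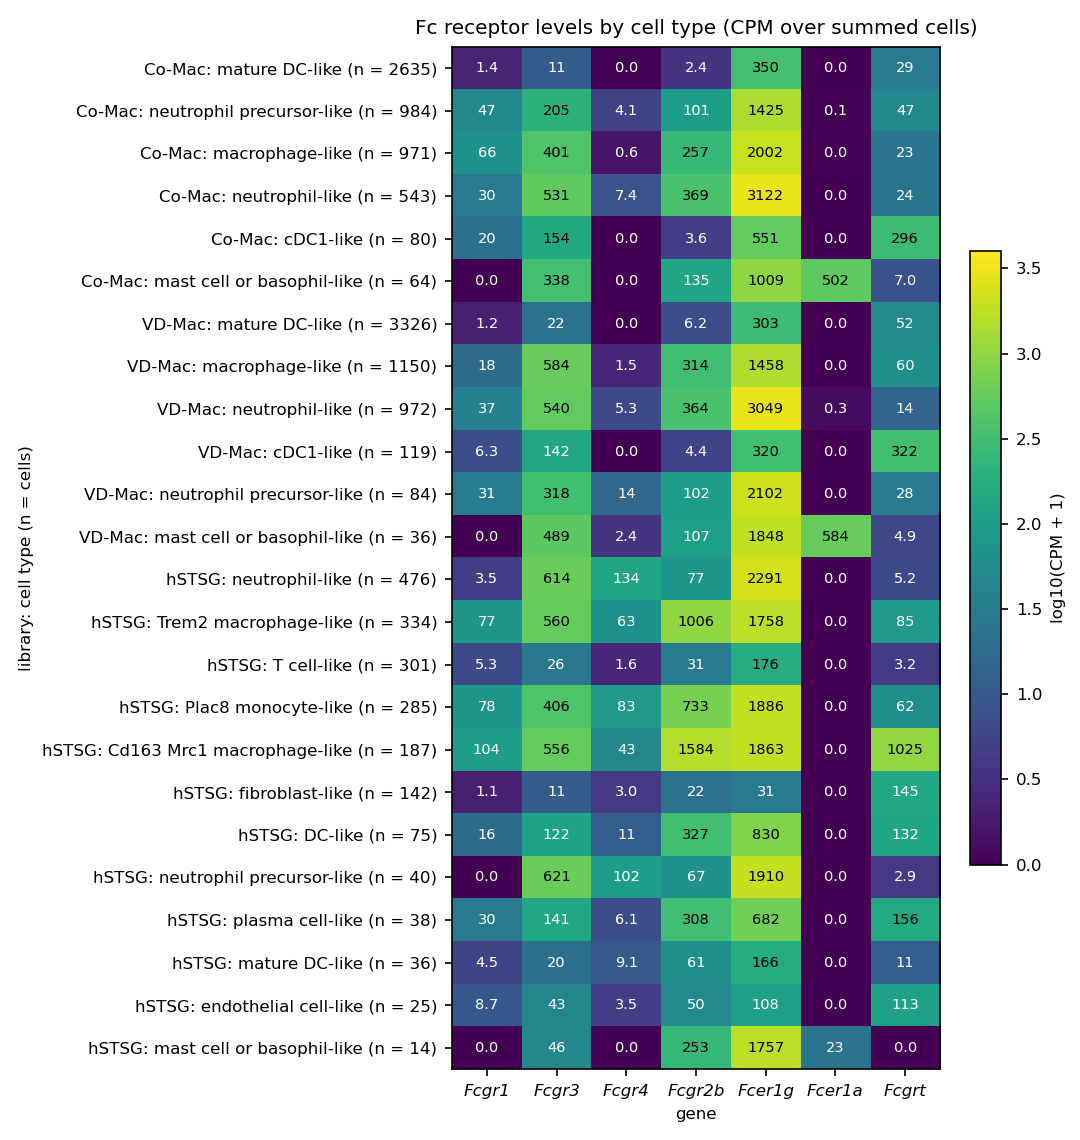
Level of each receptor gene (columns, CPM over the summed cells, printed in each box, colour on a log10 scale) in each named cell type of the 3 libraries (n = cells). *Fcgr2b* peaks in graft macrophages (1584 CPM), *Fcer1a* in mast cell or basophil-like cells (502 and 584 CPM) and *Fcgrt* in *Cd163* *Mrc1* macrophage-like cells (1025 CPM).

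Shares of cells with a UMI tell how widely a receptor was found, once depth is made equal. Each cell was thinned to 2000 UMIs and cells below that were left out. *Fcgr2b* was then found in 92.1% (87.2 to 95.6) of 178 *Cd163* *Mrc1* macrophage-like cells, with 9 left out and 96.8% before thinning. In the *Trem2* macrophage-like cells it was found in 80.1% of 332 cells, with 2 left out and 98.2% before thinning. T cell-like cells were low by comparison, with *Fcgr2b* in 3.73% of 295 cells, 6 left out and 6.64% before thinning. They were taken as the background from free RNA, though whether they express the gene themselves was not tested. Median depths were 11960, 15905 and 5552 UMIs in these 3 groups.

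In culture macrophages, where its level was lower, the inhibitory receptor was found in fewer thinned cells. The shares were 38.0% of 971 Co-Mac cells (91.7% before thinning, median 20182 UMIs, 0 left out) and 40.0% of 1149 VD-Mac cells (84.3%, 14569.5 UMIs, 1 left out). *Fcgr1* went from 12.7% (10.6 to 14.9) of the Co-Mac cells to 2.87% (1.99 to 4.01) of the VD-Mac cells. Before thinning those shares were 56.0% and 20.9%. *Fcgr3* was found in 53.2% and 66.3% of the same cells, and in 98.1% and 97.6% before thinning. Mature DC-like cells showed *Fcgr3* in 1.37% of 2627 thinned cells of Co-Mac (8 left out, 11.7% before thinning, median 14457 UMIs) and 2.56% of 3315 of VD-Mac (11 left out, 15.2%, 13684 UMIs).

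Receptors of opposite sign shared cells in the graft macrophages. A UMI of *Fcgr2b* and a UMI of an activating receptor were found together in 61.8% of the thinned *Cd163* *Mrc1* macrophage-like cells and 56.9% of the *Trem2* macrophage-like cells. *Fcgr2b* without an activating receptor was found in 30.3% and 23.2%. Graft neutrophil-like cells showed the reverse picture: 50.3% of 318 thinned cells (158 left out, median 2261.5 UMIs) held an activating receptor alone, 3.77% *Fcgr2b* alone and 8.81% both. T cell-like cells held both in 1.36%. Neutrophil-like cells of the cultures held both in 29.6% of 284 thinned cells (Co-Mac, 259 left out) and 30.4% of 675 (VD-Mac, 297 left out).

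The balance of activating to inhibitory receptors separated the graft from the cultures. The UMIs of *Fcgr1*, *Fcgr3* and *Fcgr4* together were 2.23 times those of *Fcgr2b* in Co-Mac (2.19 to 2.28), 1.99 times in VD-Mac (1.95 to 2.03) and 0.695 times in hSTSG (0.677 to 0.713). Activating UMIs thus outnumbered inhibitory ones in both cultures and were outnumbered in the graft. The sum rests on *Fcgr3*: with *Fcgr1* and *Fcgr4* alone the ratio is 0.379 in Co-Mac, 0.0949 in VD-Mac and 0.150 in hSTSG, below 1 throughout.

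Within the graft the ratio differed more between cell types than between the libraries. *Cd163* *Mrc1* macrophage-like cells had 0.444 (0.420 to 0.469) and DC-like cells 0.456 (0.379 to 0.548), which do not differ beyond counting error. *Trem2* macrophage-like cells had 0.695 (0.669 to 0.722) and *Plac8* monocyte-like cells 0.773 (0.725 to 0.825). Neutrophil-like cells were on the opposite side at 9.80 (7.86 to 12.3), as were the neutrophil precursor-like cells at 10.8 (7.05 to 17.4, 40 cells). The *Plac8* monocyte-like value moved to 1.46 when the graft was clustered at resolution 0.8. Both clusters of the *Cd163* *Mrc1* group had like ratios, 0.437 and 0.465.

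Culture types all stood above 1, but in another order. Neutrophil-like cells had 1.54 (1.36 to 1.74) in Co-Mac and 1.60 (1.48 to 1.72) in VD-Mac, against 9.80 in the graft. At resolution 0.3, which put 925 cells in the Co-Mac group in place of 543, its ratio was 2.26. The macrophage markers of the culture neutrophil-like clusters bear on this contrast with the graft too, and their part was not tested. Macrophage-like cells had 1.82 (1.76 to 1.88) and 1.92 (1.86 to 1.98), and mature DC-like cells 4.91 (3.95 to 6.15) and 3.65 (3.22 to 4.15). Highest were the cDC1-like cells, at 49.0 (18.8 to 182) and 33.9 (16.2 to 85.1), where 4 and 7 UMIs of *Fcgr2b* set the ratio.

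The make-up of the 4 IgG receptors shows which gene moved each ratio. *Fcgr3* gave 55.3% of their UMIs in Co-Mac macrophage-like cells and 63.6% in those of VD-Mac. *Fcgr2b* gave 35.4% and 34.3% there, but 59.0% in *Trem2* and 69.3% in *Cd163* *Mrc1* macrophage-like cells of the graft. In graft neutrophil-like cells the parts were 74.1% *Fcgr3*, 16.2% *Fcgr4*, 9.26% *Fcgr2b* and 0.421% *Fcgr1*. *Fcgr1*, the high-affinity receptor, gave 9.16% of the UMIs in Co-Mac macrophage-like cells and 1.94% in those of VD-Mac.

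**Figure D2:**
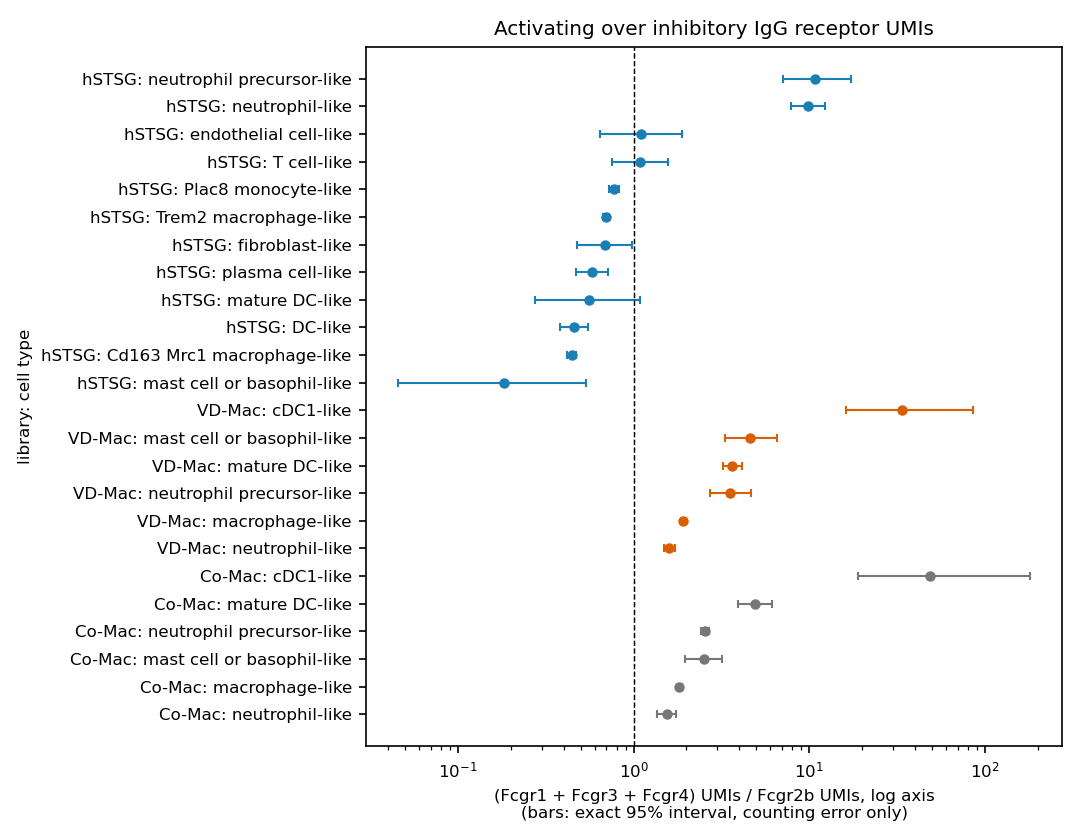
Ratio of activating (*Fcgr1*, *Fcgr3* and *Fcgr4*) to inhibitory (*Fcgr2b*) UMIs by cell type, on a log axis, for types with at least 20 such UMIs; points are 1 library each and bars are exact 95% intervals for counting error only. Graft macrophages lie below 1 (0.444 and 0.695), culture types above it, and graft neutrophil-like cells at 9.80.

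VD3 against untreated asks how the active hormone changed the receptors of cultured myeloid cells. The high-affinity receptor fell: *Fcgr1* went from 42.8 CPM in Co-Mac to 11.2 CPM in VD-Mac, a log2 ratio of -1.93 (-2.02 to -1.85). Among 7732 genes with at least 10 CPM in 1 of the libraries it ranked 65 from the lowest. The other IgG receptors stayed near their levels, with log2 ratios of 0.18 (0.15 to 0.20) for *Fcgr3* and 0.15 (0.11 to 0.18) for *Fcgr2b*. The gamma chain *Fcer1g* stood at -0.58 (-0.59 to -0.57) and the FcRn gene *Fcgrt* at 0.61 (0.55 to 0.67).

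A gene was counted as changed when it differed 2-fold or more and reached 10 CPM in the higher library. By that measure 1 of the 5 receptor genes that reached 10 CPM changed, *Fcgr1*, against 6.79% of all genes (525 of 7732, 167 higher and 358 lower). *Fcgr4* and *Fcer1a* did not reach 10 CPM in either culture. The median log2 ratio over all genes was -0.10, and centred on it *Fcgr1* stood at -1.83. *Fcgr1* was no longer counted with a minimum of 50 CPM, since it lies below that in both cultures.

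*Fcgr1* was lower within cell types too, apart from a few. Macrophage-like cells went from 66.4 to 17.8 CPM, a log2 ratio of -1.90 (-2.08 to -1.72). Cycling cells (cluster 2 in Co-Mac, cluster 4 in VD-Mac) stood at 72.1 and 22.3 CPM, at -1.69 (-1.82 to -1.57). Unnamed clusters with *Gpnmb* among their leading genes (cluster 8 in Co-Mac, cluster 6 in VD-Mac) stood at 50.2 and 10.2 CPM, at -2.30 (-2.63 to -1.98). These 3 hold most of the gene's UMIs in both cultures, and their intervals all lie beyond the 2-fold line.

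Some of these pairs are not shown to be the same cells. With both cultures clustered together, 97.1% of the Co-Mac cycling cells fell in a cycling cluster and 92.2% of the VD-Mac ones in a neutrophil precursor cluster with *Prtn3* and *Elane* in the lead. Of Co-Mac's own *Prtn3* and *Elane* cells (cluster 4), 76.9% joined the cycling cluster. Of the cells with *Gpnmb* among their leading genes, 91.9% from Co-Mac and 12.9% from VD-Mac fell in 1 cluster, and 79.8% from VD-Mac in another. Of the precursor-like cells with *Ltf*, 88.5% from Co-Mac joined the neutrophil cluster and 94.0% from VD-Mac a precursor cluster. Macrophage-like cells of each culture fell in macrophage clusters, though not the same one, and *Fcgr1* stood at -1.83 between them. Mature DC-like cells were likewise split by culture: 1 mature DC cluster held 2607 cells of Co-Mac and 15 of VD-Mac, and the other 10 and 3146.

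The cDC1-like cells had 22 and 10 UMIs of *Fcgr1*, a log2 ratio of -1.64 (-2.88 to -0.50), an interval that holds the macrophage-like value. Neutrophil-like cells and the precursor-like cells with *Ltf* stood closer to 0. The precursor-like cells led by *Prtn3* and *Elane* in Co-Mac (cluster 4, 603 cells, 44.7 CPM) had no cluster of that name in VD-Mac and were not compared. Neutrophil precursor-like cells with *Ltf* among their leading genes (cluster 7 in Co-Mac, cluster 9 in VD-Mac) stood at 57.5 and 31.2 CPM, at -0.88 (-1.59 to -0.24). Neutrophil-like cells stood at 0.27 (-0.27 to 0.85), an interval that holds 0 and leaves out a 2-fold fall, but at -0.59 with 30 principal components and -0.49 with both cultures clustered together. In mature DC-like cells the level was 1.39 and 1.16 CPM, too low to be counted. Whether these types differ from the macrophage-like cells in their response has no test with 1 library each.

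Against all genes of the same cells, the receptor counts read as follows. Only receptors that reached 10 CPM in the cells compared could be counted. In macrophage-like cells 2 of 5 changed, *Fcgr1* lower and *Fcgrt* higher, against 11.3% of genes. In cycling cells 1 of 5 changed, against 8.51%, and in the cells with *Gpnmb* among their leading genes 1 of 5, against 8.18%, *Fcgr1* in each case. In cDC1-like cells *Fcgr1* was again the 1 that changed, of 4, against 16.3%. *Fcgr3* was the 1 of 3 in mature DC-like cells, against 4.78%. None changed of 5 in neutrophil-like cells (5.48% of genes), of 4 in mast cell or basophil-like cells (22.0%) or of 6 in the precursor-like cells with *Ltf* (24.2%).

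*Fcgr3* and *Fcgr2b* both stood higher in VD-Mac in macrophage-like cells, short of 2-fold. *Fcgr3* went from 401 to 584 CPM, at 0.54 (0.50 to 0.59), and *Fcgr2b* from 257 to 314 CPM, at 0.29 (0.24 to 0.35). Of the activating receptors, *Fcgr1* was counted as lower and *Fcgr3* was not counted as changed. The ratio of activating to inhibitory UMIs was 1.82 in Co-Mac and 1.92 in VD-Mac. In the cycling cells, which joined different clusters as given above, that ratio was 2.40 in Co-Mac and 1.78 in VD-Mac.

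In mature DC-like cells both genes were low, and their values stood higher in VD-Mac. *Fcgr3* went from 10.5 to 21.5 CPM, at 1.03 (0.87 to 1.20), and *Fcgr2b* from 2.44 to 6.21 CPM, at 1.35 (1.02 to 1.69), below the 10 CPM minimum. The clusters with *Aldh1a2* among their leading genes carried more *Fcgr3* (15.4 CPM in cluster 1 of Co-Mac, 30.6 CPM in cluster 0 of VD-Mac) than those with *Il12b* (4.10 CPM in cluster 0, 6.81 CPM in cluster 1). In the cDC1-like cells *Fcgr2b* stood at 3.55 CPM (0.968 to 9.09) in Co-Mac and 4.38 CPM (1.76 to 9.03) in VD-Mac, intervals that hold the mature DC-like values. The part of free RNA in such low levels was not tested.

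*Fcer1g*, the gamma chain, stood lower in VD-Mac in the macrophage-like cells, the cycling cells and those with *Gpnmb* among their leading genes. Its log2 ratios were -0.46 (-0.48 to -0.43), -0.60 (-0.62 to -0.58) and -0.51 (-0.55 to -0.47), short of 2-fold. The macrophage-like value was -0.07 in cells under 5% mitochondrial UMIs and -0.50 in those with 5 to 10%, an alternative chosen after seeing the data. In neutrophil-like cells it stood at -0.03 (-0.09 to 0.02). The cDC1-like cells carried 551 CPM (509 to 596) in Co-Mac and 320 CPM (293 to 349) in VD-Mac. That fall was also short of 2-fold.

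Mast cell or basophil-like cells were divided differently in each culture, which bears on their receptors. The Co-Mac cluster has *Igkc*, *Ly6d* and *Iglc1* among its leading genes, while in VD-Mac the cells with *Igkc* and *Mzb1* formed an unnamed cluster of their own (cluster 10, 51 cells). With both cultures clustered together, 78.4% of that cluster joined the mast cell or basophil cluster. *Fcer1a* was found in 27.6% of 58 thinned cells of the Co-Mac cluster (6 left out, 31.2% before thinning, median 9175 UMIs) against 58.3% of 36 in VD-Mac (0 left out, 83.3%, 7588.5 UMIs). *Fcer1g* was found in 56.9% and 91.7% of the same cells. Its level was 1009 CPM in Co-Mac and 1848 CPM in VD-Mac, and that of *Fcer1a* gave a log2 ratio of 0.22 (-0.02 to 0.46). The part of this make-up in the difference was not tested.

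*Fcgrt*, the recycling receptor for IgG, was higher with VD3 in macrophage-like cells, at 23.1 CPM in Co-Mac and 60.1 CPM in VD-Mac, a log2 ratio of 1.38 (1.22 to 1.53). Mature DC-like cells went from 28.8 to 51.8 CPM, at 0.85 (0.75 to 0.95), and cDC1-like cells stood at 0.12 (-0.08 to 0.32). Neutrophil-like cells and the precursor-like cells with *Ltf* had lower values in VD-Mac. Neutrophil-like cells stood at 23.8 CPM in Co-Mac and 14.0 CPM in VD-Mac, at -0.76 (-1.47 to -0.04), and past 2-fold with 30 principal components (-1.18) or both cultures clustered together (-1.35). The precursor-like cells with *Ltf* stood at 40.4 and 28.4 CPM, at -0.51 (-1.26 to 0.17), an interval that holds 0. The macrophage-like value depended on the mitochondrial share of the cells. Those under 5% mitochondrial UMIs carried 94 UMIs of *Fcgrt* in 139 cells of Co-Mac (25.1 to 37.9 CPM) and 46 in 112 cells of VD-Mac (21.1 to 38.5 CPM), at -0.10. Those with 5 to 10% carried 21.8 CPM (832 cells) and 63.1 CPM (1038 cells), at 1.53.

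**Figure D3:**
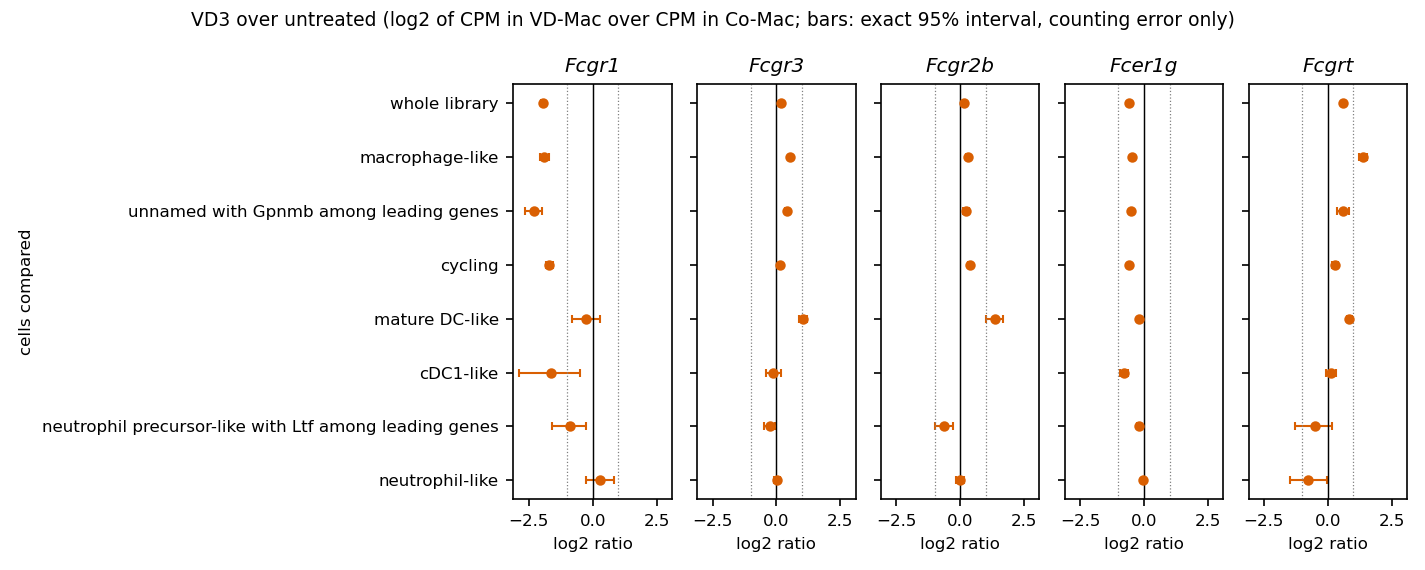
Log2 ratio of CPM in VD-Mac over CPM in Co-Mac for 5 receptor genes, in whole libraries and within cell groups paired between the cultures, shown where at least 20 UMIs were counted; points are 1 library against 1, bars are exact 95% intervals for counting error only and dotted lines mark 2-fold. *Fcgr1* lies at -1.93 for whole libraries and -1.90 in macrophage-like cells, while *Fcgr3* and *Fcgr2b* lie above 0 in the latter.

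Genes that work with the receptors changed in part. Of the other receptors that signal through the gamma chain, 3 of the 4 that reached 10 CPM were lower with VD3, against 6.79% of all genes past 2-fold, and 2 of 4 in macrophage-like cells, against 11.3%. *Clec4n* (Dectin-2), which binds fungal mannans, went from 1263 to 474 CPM, at -1.41. *Clec4d* stood at -1.39 and *Pira2*, an activating Ig-like receptor, at -2.06, while *Clec4e* (Mincle), at -0.93, was not counted. The list's median log2 ratio was -1.39, against -0.10 for all genes. *Tyrobp*, which encodes the related adaptor DAP12, stood at 1048 CPM in Co-Mac and 918 CPM in VD-Mac, a log2 ratio of -0.19.

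Downstream of the activating receptors 2 of 18 genes at the minimum changed, near the 6.79% of all genes. *Rac2*, a GTPase of phagocytosis, rose from 215 to 449 CPM, at 1.06, and *Prkcd*, a protein kinase C, fell from 412 to 175 CPM, at -1.23. *Syk* stood at 0.09 and *Grb2* at 0.32, and the median of the list was -0.19. Within macrophage-like cells 1 of 17 genes at the minimum was higher, *Rac2* at 1.36, and 1 lower, *Prkcd* at -1.77. Of all genes there, 11.3% were past 2-fold. *Syk* was not counted there, at 119 CPM in Co-Mac and 64.6 CPM in VD-Mac, a log2 ratio of -0.89.

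On the inhibitory side 1 of 6 genes changed over the whole libraries, against 6.79% of all genes. *Dok2*, an adaptor that restrains Ras signalling, went from 135 to 36.7 CPM, at -1.88. *Inpp5d*, which encodes SHIP1, the phosphatase that *Fcgr2b* recruits, stood at 60.3 and 36.8 CPM, a log2 ratio of -0.71. *Ptpn6* (SHP-1) stood at 0.35 and *Ptpn11* at -0.31, and the list's median was -0.17. In macrophage-like cells 2 of the 6 were higher and 1 lower, against 11.3% of genes past 2-fold, and *Ptpn6* rose from 113 to 236 CPM, at 1.06.

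Partners and relatives were mixed. *B2m*, the light chain that FcRn shares with MHC class I, stood at 0.48, and *Trim21*, a cytosolic IgG receptor, at 0.06. *Fcrls*, a scavenger-like member of the Fc receptor family, was the only 1 of 7 further family genes at the minimum and fell from 25.2 to 2.48 CPM, at -3.35. Of 8 immunoglobulin genes only *Ighm*, the IgM heavy chain gene, reached it and rose from 8.24 to 30.4 CPM, at 1.88. The IgG and IgE heavy chain genes, which encode the ligands of the receptors described here, stood at 0.0679 CPM or less in both cultures. The others of these lists lay below 10 CPM in both cultures, among them *Fcrl1*, *Fcmr* and *Fcrla*, the IgE receptor *Fcer2a*, the signalling chain *Cd247* and the immunoglobulin genes *Igha*, *Jchain* and *Ighg3*. Of these, *Igha* stood at 0.249 CPM in Co-Mac and 9.60 CPM in VD-Mac, and *Jchain* at 0.0528 and 3.81 CPM. The unnamed cluster 10 of VD-Mac held 99.5% of the *Igha* UMIs, 97.3% of the *Jchain* UMIs and 5.25% of the *Ighm* UMIs of its library, and the macrophage-like cells 36.1% of the *Ighm* UMIs. In the macrophage-like cells *Ighm* stood at 2.29 CPM in Co-Mac and 70.0 CPM in VD-Mac.

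In the graft the UMIs of *Ighm* and *Jchain* lay mostly in 2 clusters. Plasma cell-like cells held 78.6% of the *Ighm* UMIs, at 21289.8 CPM, and 93.2% of those of the joining chain *Jchain*, at 4753 CPM. An unnamed subset of 153 cells (cluster s2, with hemoglobin genes in the lead) held 19.1% of the *Ighm* UMIs, at 9839 CPM, and 5.46% of those of *Jchain*. The IgG gene *Ighg2b* stood at 28.0 CPM in the plasma cell-like cells. These counts cover RNA of mouse cells only and say nothing of IgG protein in the graft.

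Likeness of pattern was measured by Pearson's r of log2(CPM + 1) over 18 named cell types of the 3 libraries, among 6351 genes. It is a description without a test, since types of 1 library share its depth and free RNA. *Fcgr1* was most like *Csf1r* (0.931), the M-CSF receptor gene, then *Capza2* (0.921) and *Rab5c* (0.883). *Fcgr3* was most like *Atp6v0b* (0.940), *Adssl1* (0.937) and *Ccr1* (0.911), and *Fcer1g* was most like *Tyrobp* (0.927), *Card19* (0.924) and *Cd300a* (0.908). Between *Fcer1g* and *Fcgr3* themselves r was 0.888.

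The other receptors had neighbours of different kinds. *Fcgr2b* was most like *Cd38* (0.944), *Rnf130* (0.898) and *Rgl1* (0.898), whose levels peaked in the *Cd163* *Mrc1* macrophage-like cells as its own did. *Fcgr4* was most like *Cd300ld* (0.920), *Lrg1* (0.913) and *Cdc42ep4* (0.913), all highest in graft neutrophil-like cells. *Fcer1a* was most like the eosinophil granule genes *Epx* (0.999) and *Prg3* (0.998) and *Shisa8* (0.999), a value that rests on 1 type, the mast cell or basophil-like cells of Co-Mac. *Fcgrt* was most like *Hfe* (0.820), which encodes another MHC class I-like protein, *Eid1* (0.802) and *Ctnnd1* (0.761), and its r with *Fcgr2b* was 0.00163.

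Start regions of all 7 genes are in the RefSeq promoter table for GRCm38.p6, from 250 bases before to 50 after each start. A single region per gene was searched, and other starts of the same gene were not. The regions of *Fcgr3* and *Fcgr2b* lie wholly inside the gene spans given above, so the outer ends of those spans were not searched. Motifs were chosen after the sequences were seen and searched on both strands. GAGGAA, a core of the kind bound by the myeloid factor PU.1, was in 4 of the 7, *Fcgr1*, *Fcgr3*, *Fcgr4* and *Fcer1a*, and in 28.3% of 32851 promoters. TTCNNNGAA, the form of the interferon-gamma activated site, was in *Fcgr1* alone and in 8.30% of all promoters. AGGTCA, a nuclear receptor half-site, was in *Fcgr2b* alone and in 16.3% of all. The direct repeat of AGGTCA with any 3 bases between the copies, the ideal form of a vitamin D response element, was in 0 of the 7 and in 2 of all promoters.

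The activating receptor starts are shown because *Fcgr1* and *Fcgr3* share a stretch of 14 bases, ttccttcctctttt, around that core, and *Fcgr2b* is set beside them as the inhibitory counterpart. With both strands counted, the stretch was in 5 of the 32851 promoters, which belong to 4 genes. Capitals mark GAGGAA (written TTCCTC on the gene's strand) and TTCNNNGAA, neither of which is in *Fcgr2b*. The regions are chr3:96293920-96294219 (minus strand), chr1:171059354-171059653 (minus), chr1:171018676-171018975 (plus) and chr1:170976022-170976321 (minus). A match is a run of letters, not a bound site.
Fcgr1: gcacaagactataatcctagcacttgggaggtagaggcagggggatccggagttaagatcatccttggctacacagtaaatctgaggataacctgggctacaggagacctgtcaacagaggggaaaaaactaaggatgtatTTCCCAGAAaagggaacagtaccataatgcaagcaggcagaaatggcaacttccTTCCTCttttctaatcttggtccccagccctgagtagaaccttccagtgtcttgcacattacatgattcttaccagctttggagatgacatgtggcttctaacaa
Fcgr3: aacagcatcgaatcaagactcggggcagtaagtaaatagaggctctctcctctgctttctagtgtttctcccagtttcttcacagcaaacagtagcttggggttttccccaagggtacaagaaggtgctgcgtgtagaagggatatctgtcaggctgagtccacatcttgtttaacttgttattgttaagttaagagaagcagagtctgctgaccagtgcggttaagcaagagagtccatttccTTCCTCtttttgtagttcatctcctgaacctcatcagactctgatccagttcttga
Fcgr4: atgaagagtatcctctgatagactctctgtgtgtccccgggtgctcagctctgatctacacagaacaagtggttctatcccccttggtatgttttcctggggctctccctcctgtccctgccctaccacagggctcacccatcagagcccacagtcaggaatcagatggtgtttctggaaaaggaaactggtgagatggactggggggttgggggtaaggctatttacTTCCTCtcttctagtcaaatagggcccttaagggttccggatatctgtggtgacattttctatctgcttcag
Fcgr2b: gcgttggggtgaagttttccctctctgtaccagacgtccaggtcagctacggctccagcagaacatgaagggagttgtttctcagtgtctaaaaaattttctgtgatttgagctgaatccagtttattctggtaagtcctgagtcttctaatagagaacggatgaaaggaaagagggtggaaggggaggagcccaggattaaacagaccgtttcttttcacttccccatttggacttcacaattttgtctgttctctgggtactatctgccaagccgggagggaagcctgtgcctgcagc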

How the data were processed

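The authors deposited UMI count matrices for each library, made with Cell Ranger (3.1.0 in the file headers). Their processing notes also name Seurat 3.1.1. Barcodes were filtered as stated and clustered library by library with Seurat 5.3.0 in R 4.3.3 (2000 variable genes, 15 principal components, resolution 0.5), and the graft's myeloid cells were clustered again. Clusters were named from marker lists, using markers found in at least 10% of their cells. Counts were summed and compared in Python 3.11.15 with numpy 2.4.6 and scipy 1.17.1. Levels have exact Poisson intervals, shares Clopper-Pearson intervals and ratios exact conditional binomial intervals. Members and lists were chosen with earlier results of these data known. Named genes are the receptors, each list's changed genes and up to 4 of its most abundant genes, and the 3 genes most like each receptor. Hashtag counts of the graft were not used, since no map of tags to mice is given.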

Additional observations from a re-analysis of the deposited data

How the results depend on the processing

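The fall of *Fcgr1* in whole libraries and the side of 1 on which each library's activating to inhibitory ratio lies held under the alternatives that change cells or scaling. Log2 ratios of VD3 over untreated for *Fcgr1*, *Fcgr3*, *Fcer1g* and *Fcgrt* were -1.61, 0.26, -0.22 and 0.17 under 5% mitochondrial UMIs. For *Fcgr1*, *Fcgr3*, *Fcgr2b*, *Fcer1g* and *Fcgrt* they were -1.83, 0.28, 0.25, -0.48 and 0.71 centred on the median, -1.48, 0.34, 0.22, -0.30 and 0.52 as a mean over cells, and -1.60, 0.39, 0.42, -0.44 and 0.55 with the cell types of the untreated culture. With the highest Scrublet scores removed, *Fcgr3* stood at 0.21 and *Fcer1g* at -0.56. At 1.5-fold 1449 of 7732 genes were past the fold (18.7%) and 2 of 5 receptor genes. With a minimum of 50 CPM these were 215 of 2827 genes (7.61%) and 0 of 4 receptor genes, as *Fcgr1* lies below that minimum.

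Activating to inhibitory ratios of Co-Mac, VD-Mac and hSTSG were 2.50, 2.38 and 0.742 under 5% mitochondrial UMIs, 2.13, 2.09 and 0.936 as a mean over cells, and 1.85, 1.89 and 0.545 for *Fcgr3* alone. For *Fcgr1* with *Fcgr4* they were 0.379, 0.0949 and 0.150, so both cultures changed sides, as did their macrophage-like (0.261 and 0.0613), neutrophil-like (0.102 and 0.115) and mature DC-like cells (0.59 and 0.187), because *Fcgr3* is left out. *Plac8* monocyte-like cells changed sides at resolution 0.8 (1.46). Neutrophil-like cells of Co-Mac went to 2.26 at resolution 0.3. *Fcgrt* in macrophage-like cells changed direction under 5% mitochondrial UMIs (-0.10). The cause was not tested in the last 2. *Fcer1g* in the same cells stood at -0.07.

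Of 90 VD3 ratios within cell types, 63 stayed within their counting interval and 26 left it with no clear change of direction. Neutrophil-like *Fcgr1*, near 0 to begin with, went to -0.59 with 30 principal components and -0.49 with both cultures clustered together. Neutrophil-like *Fcgr2b* went to 0.70 and 0.62 under the same 2, and in the second the macrophage clusters were almost all of 1 library (1141 of 1142 cells and 1043 of 1047). Not run: VD3 ratios of neutrophil-like cells at resolution 0.3, which left 0 such cells in VD-Mac. Of 30 VD3 ratios of whole libraries, 9 stayed within their counting interval and 21 left it without a change of direction. Of 93 activating to inhibitory ratios, 49 stayed, 35 left it and 9 changed sides. Of 289 levels within cell types, 237 stayed and 52 left it. Of 132 shares of cells, 27 stayed within their counting interval under the alternatives and 105 left it. Thinned to 1000 UMIs, *Fcgr1* was found in 6.80% of Co-Mac and 0.957% of VD-Mac macrophage-like cells. *Fcgr2b* was then found in 73.8% of *Cd163* *Mrc1* macrophage-like cells.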

Other observations

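With 1 library per condition, no value here separates a condition from its library, and shares of rare cells rest on few UMIs. The graft's counts are those of mouse genes alone.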
